A study of Glycine max with 30 samples.

Results

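The middle of a soybean chromosome was taken here as the stretch from 40% to 60% of its length, and it was examined for 2 histone marks, H3K4me3 and H3K27me3. The length of each of the 20 chromosomes was the largest end in any of the 10 region lists, and a region belonged to the middle where its midpoint fell in that stretch. In all, 19845 of the 319439 listed regions lay there, of which 13953 were H3K4me3 peaks (of 231124) and 5892 were H3K27me3 islands (of 88315). The middle was set against the first and last 10% of the chromosomes, called the ends, which held 126667 regions on the same length of 189.9 Mb.

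Histone H3 trimethylated at lysine 4 sits at the starts of expressed genes. Histone H3 trimethylated at lysine 27 is laid down by Polycomb complexes, often as broad domains over repressed genes. In soybean the central parts of most chromosomes are pericentromeric chromatin, rich in repeats and poor in genes, while genes are dense in the outer arms.

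Chromatin immunoprecipitation and sequencing (ChIP-seq) was carried out on plants of 1 cultivar, Williams 82, and no other genotype or treatment is labelled. The 5 stages were cotyledon-stage embryos (seeds 2.5 to 3.5 mm long), early maturation embryos (seeds of 6 to 7 mm), mid-maturation embryos (seeds of 200 to 250 mg), late maturation embryos (seeds fully yellow, 230 to 500 mg) and seedlings at day 8 from sowing. For every stage and each of 3 antibodies there were 2 biological replicates (1 µg against H3K4me3, 10 µg against H3K27me3, and 3 µg against total H3 as control), or 30 samples in 15 groups. The late maturation embryos had their own protocol: they were frozen and ground before 15 minutes of crosslinking on ice, and their nuclei passed through a density gradient, so stage and protocol cannot be told apart there. The other tissues were crosslinked for 10 minutes at room temperature.

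Each stage and mark had 1 list, made from both replicates together, so there is no spread between replicates and no difference was tested. Intervals given with shares and with ratios of numbers are 95% intervals that cover counting error only, and neighbouring regions are not independent. Whole embryos and seedlings mix cell types, so a mark in fewer cells and less of it in every cell cannot be told apart. The lists held 41536 to 52891 peaks and 14155 to 21435 islands. Islands were kept where their deposited false discovery rate (FDR) was at most 0.05, which left 5834 of the 5892 in the middle: 16 were dropped at late maturation and 42 in seedlings.

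Listed regions of both marks were sparse in the middle at every stage. How well reads can be placed in the middle was not examined, so fewer listed regions need not mean less of a mark. H3K4me3 peaks numbered 2665 in the middle against 18287 at the ends at the cotyledon stage, 2744 against 18308 at early maturation and 2878 against 19494 at mid-maturation. They numbered 2549 in the middle against 17094 at the ends at late maturation, and 3117 against 21799 in seedlings. As a density, the middle had 13.4 to 16.4 peaks per Mb over the 5 lists and the ends had 89.99 to 114.8. The ends thus exceeded the middle 6.86-fold in the cotyledon stage list (95% interval 6.59 to 7.15), 6.67-fold at early maturation (6.41 to 6.95), 6.77-fold at mid-maturation (6.51 to 7.04), 6.71-fold at late maturation (6.43 to 6.99) and 6.99-fold in seedlings (6.74 to 7.26). These 5 intervals overlap one another, so no order among the stages can be read from them.

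H3K27me3 islands numbered 1482 in the middle against 7462 at the ends at the cotyledon stage, 952 against 5138 at early maturation and 1039 against 5650 at mid-maturation. They numbered 1118 in the middle against 6007 at the ends at late maturation, and 1243 against 7143 in seedlings. The middle had 5.01 to 7.80 islands per Mb and the ends 27.05 to 39.3. The ends exceeded the middle 5.04-fold at the cotyledon stage (4.76 to 5.32), 5.40-fold at early maturation (5.04 to 5.78), 5.44-fold at mid-maturation (5.09 to 5.81), 5.37-fold at late maturation (5.04 to 5.73) and 5.75-fold in seedlings (5.41 to 6.10). In all 10 lists the density was lower in the middle on 20 of 20 chromosomes.

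In number of listed regions, the repressive mark was depleted by a smaller factor than the active one. At every stage the ratio of ends to middle in number was smaller for H3K27me3 than for H3K4me3, with intervals that did not overlap. In covered bases the ratio was smaller for H3K27me3 at mid-maturation and in seedlings only. Counted together, there were 1.80 H3K4me3 peaks for each H3K27me3 island in the middle against 2.45 at the ends at the cotyledon stage. The corresponding numbers were 2.88 against 3.56 at early maturation, 2.77 against 3.45 at mid-maturation, 2.28 against 2.85 at late maturation and 2.51 against 3.05 in seedlings.

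Measured in bases, both marks were depleted to a similar extent. H3K4me3 covered 1.13% to 1.496% of the middle against 8.00% to 10.9% of the ends. H3K27me3 covered 3.18% of the middle against 23.2% of the ends at the cotyledon stage, 2.37% against 18.6% at early maturation and 2.48% against 16.7% at mid-maturation. It covered 2.57% of the middle against 20.6% of the ends at late maturation, and 2.33% against 16.7% in seedlings. The ratio of the ends' covered share to the middle's was 7.10 to 7.30 for H3K4me3 and 6.74 to 8.00 for H3K27me3.

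**Figure D1:**
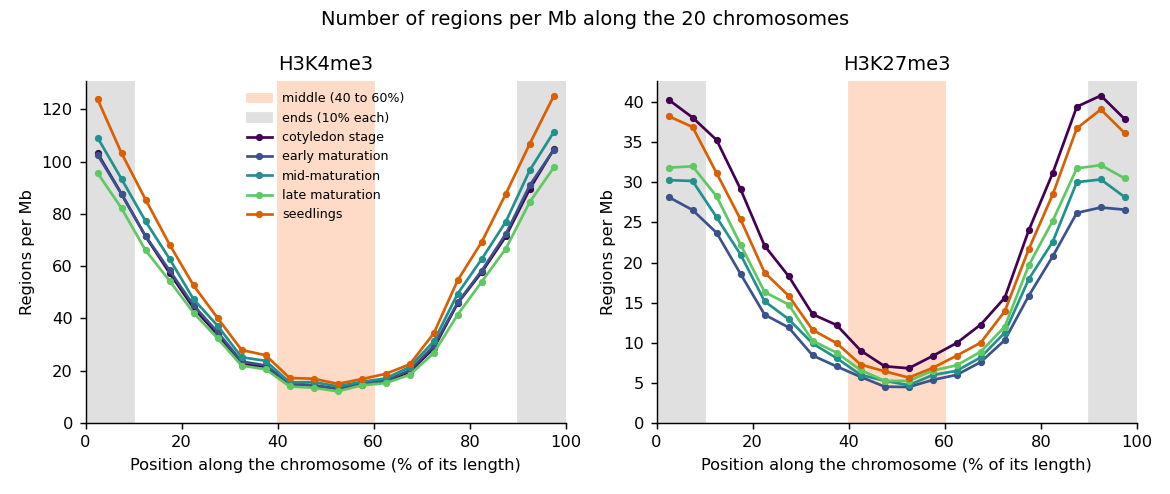
Number of H3K4me3 peaks (left) and H3K27me3 islands (right) per Mb, in bins of 5% of the chromosome length summed over the 20 chromosomes, 1 line per stage. The orange band is the middle and the grey bands are the ends: every line is lowest in or beside the middle, where H3K4me3 has 13.4 to 16.4 peaks per Mb against 89.99 to 114.8 at the ends.

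Summed over the 20 chromosomes, both sides of the middle were close in density. From 40% to 50% of the length there were 13.7 to 17.0 H3K4me3 peaks per Mb, and from 50% to 60% there were 13.2 to 15.8. H3K27me3 islands numbered 5.12 to 8.03 per Mb on the first side and 4.91 to 7.57 on the second. When each chromosome was cut into bins of 5% of its length, the bin with the fewest peaks lay inside the middle on 13 of 20 chromosomes. Chromosomes 1, 3, 6, 9, 14, 15 and 16 had their emptiest H3K4me3 bin elsewhere, as near the end as 75% to 80% on chromosome 14.

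The spacing of neighbouring peaks differed less between middle and ends than their number did. The median distance from a peak to its nearest neighbour was 7563 bp in the middle against 3584 bp at the ends at the cotyledon stage, 8016 against 3815 bp at early maturation and 7830 against 3752 bp at mid-maturation. It was 9565 bp in the middle against 4196.5 bp at the ends at late maturation, and 5902 against 2881 bp in seedlings. For H3K27me3 the nearest neighbour lay at a median of 12000 to 22700 bp in the middle against 2800 to 6200 bp at the ends.

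Long stretches of the middle held no listed region of either mark at any stage. Whether reads can be placed in these stretches was not examined. The longest run without an H3K4me3 peak in any of the 5 lists was 1935 kb on chromosome 2, from 21969507 to 23904287 (positions as in the lists, counted from 1). The longest run without an H3K27me3 island was 3081 kb on chromosome 8, from 25113601 to 28194144, where the middle of that chromosome ends. The longest run without a listed region of either mark was 961.0 kb on chromosome 7, from 23718201 to 24679180. Runs of at least 500 kb made up 17.5% of the middle for H3K4me3, 35.8% for H3K27me3 and 10.4% for both marks together.

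The chromosomes differed widely, and chromosome 13 stood far above the rest. Over the 5 lists its middle held a mean of 66.9 H3K4me3 peaks per Mb (61.97 to 76.1) against 88.1 at its ends. Its H3K27me3 islands averaged 22.5 per Mb in the middle (18.4 to 26.0) against 29.0 at its ends. Chromosomes 8 and 11 came next, with 28.0 and 26.2 peaks and 10.8 and 10.3 islands per Mb in the middle. The other 17 chromosomes had 6.77 to 15.0 peaks per Mb, lowest on chromosome 5, and 3.19 to 7.00 islands per Mb, lowest on chromosome 4. The ranges over the 5 lists of chromosome 13 did not overlap those of any other chromosome for either mark.

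**Figure D2:**
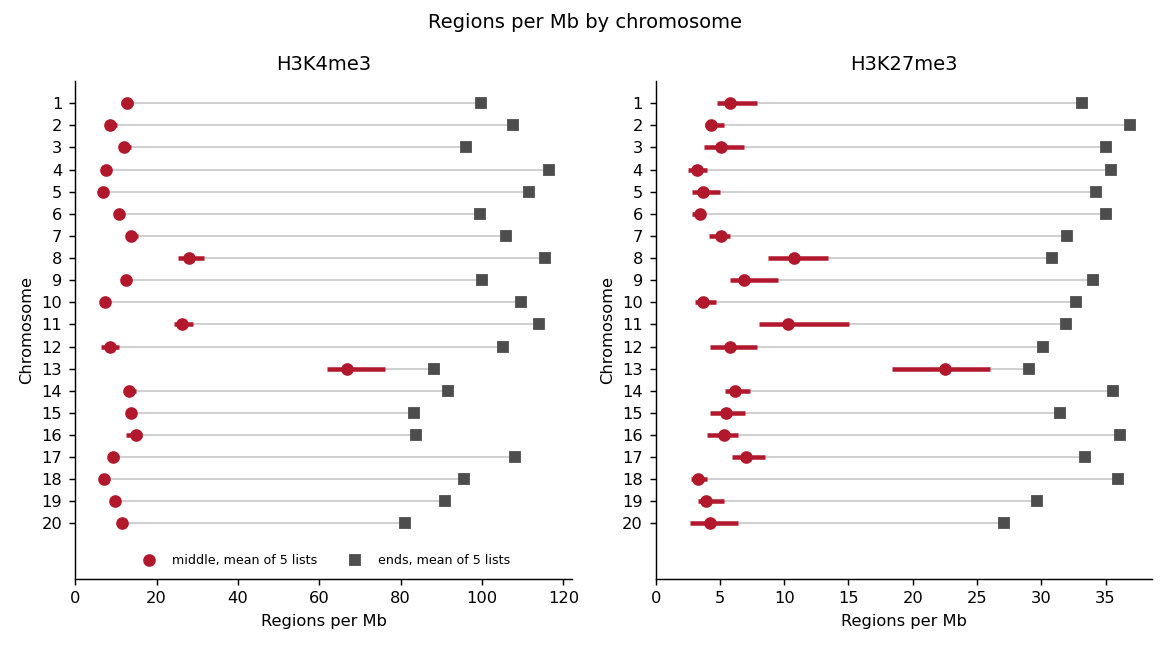
Regions per Mb in the middle (red circles, mean of the 5 lists, with a red bar from the lowest to the highest list) and at the ends (grey squares, mean of the 5 lists) of each chromosome, H3K4me3 left and H3K27me3 right. Chromosome 13 has 66.9 peaks and 22.5 islands per Mb in its middle, against 28.0 and 10.8 on chromosome 8, the next highest.

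Within the middle of chromosome 13 the density changed at 1 place. From 40% to 45% of its length the cotyledon-stage list had 4 H3K4me3 peaks, the early and mid-maturation lists 5 each, the late maturation list 6 and the seedling list 7. From 45% to 60% the same lists held 572, 567, 590, 544 and 668 peaks, or 81.7 to 100.4 per Mb. Both ends of that chromosome together had 79.4 to 100.6 per Mb, but they differed, and the stretch was denser than the first end (55.2 to 72.3) and less dense than the last (103.7 to 128.9) in every list. H3K27me3 followed the same boundary, with 1 to 3 islands from 40% to 45% in each list and 162 to 228 from 45% to 60%.

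In steps of 1% of the length, the stretch from 19525712 to 19969477 held 1 peak in every list. The next, from 19969478 to 20413243, held 7 to 9, and the one after it, from 20413244 to 20857009, held 48 to 58. No step between that point and 60% of the length had fewer than 24 peaks in any list. The other 19 chromosomes together had 11.3 peaks per Mb from 45% to 50% of their length, where chromosome 13 had 88.1.

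**Figure D3:**
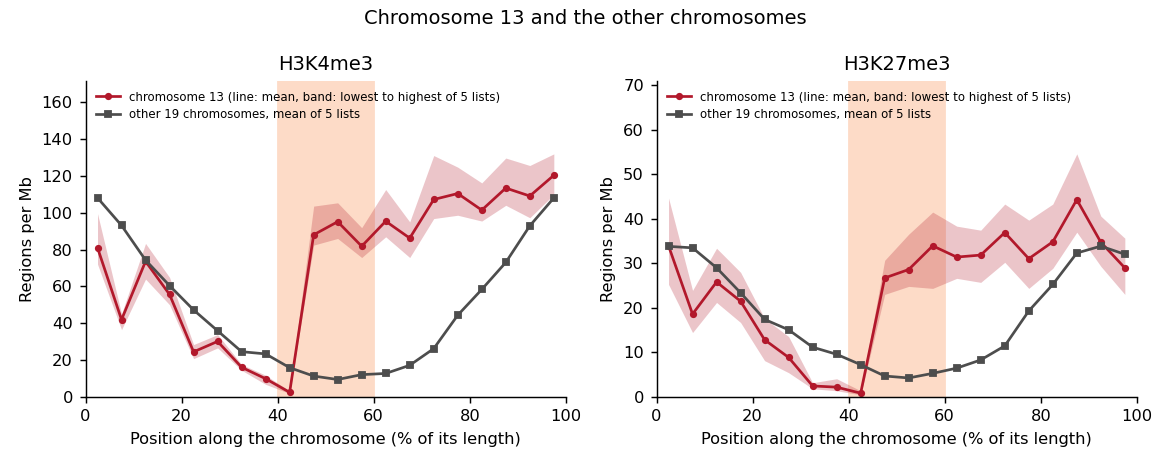
Regions per Mb along chromosome 13 (red line, mean of the 5 lists, with a band from the lowest to the highest list) and along the other 19 chromosomes together (grey line), in bins of 5% of the length, H3K4me3 left and H3K27me3 right. In the orange band, the middle, chromosome 13 goes past the other chromosomes at 45% of its length, with 88.1 peaks per Mb in the bin that begins there.

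Chromosomes 8 and 11 showed a step of the opposite order. On chromosome 8 the H3K4me3 density averaged 48.3 and 54.2 peaks per Mb in the bins from 40% to 50%, then 7.07 and 2.38 in those from 50% to 60%. On chromosome 11 it averaged 69.1, 27.6, 3.57 and 4.60 peaks per Mb in the same order. No H3K27me3 island lay between 55% and 60% of chromosome 8 in any list, and the 2 bins before 50% had 20.7 islands per Mb each. The high values of all 3 chromosomes thus came from a part of the 40% to 60% stretch. On chromosome 13 the dense part did not stop at 60%. From there to 100% of its length the bins averaged 86.3 to 120.4 H3K4me3 peaks per Mb. H3K27me3 islands averaged 28.9 to 44.3 per Mb in the same bins. The dense part of its middle was thus the start of a longer dense stretch.

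Chromosome 13 carried 20.7% to 21.7% of the middle's H3K4me3 peaks and 15.6% to 18.3% of its H3K27me3 islands, on 4.67% of the length. Without it, the ends exceeded the middle 8.08-fold to 8.56-fold in H3K4me3 number and 5.71-fold to 6.74-fold in H3K27me3 number. Its middle peaks were also wider than those of the other middles, with a median of 990.5 against 914 bp at the cotyledon stage and 946 against 893.5 bp in seedlings. Its middle islands had a median width of 4000 bp against 3000 bp on the other chromosomes at the cotyledon stage, and 2800 against 2600 bp in seedlings.

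Regions in the middle were narrower than those at the ends for both marks. The median H3K4me3 peak was 936 bp wide in the middle against 994 bp at the ends at the cotyledon stage, 996.5 against 1060 bp at early maturation and 949 against 989.5 bp at mid-maturation. It was 812 bp in the middle against 858 bp at the ends at late maturation, and 909 against 950 bp in seedlings. The middle's median was the lower one on 16 or 17 of 20 chromosomes in each list. The lists differ in how many very short peaks they hold: 7.65% of middle peaks at the cotyledon stage and 8.98% in seedlings were under 200 bp, against 0.902% to 1.60% at the other stages, so widths are set side by side only within a list.

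H3K27me3 islands showed the larger difference in width. The median island was 3200 bp wide in the middle against 4200 bp at the ends at the cotyledon stage, 3800 against 5000 bp at early maturation and 3600 against 4000 bp at mid-maturation. It was 3400 bp in the middle against 4600 bp at the ends at late maturation, and 2800 against 3000 bp in seedlings. The middle's median was lower on 18, 20, 17, 19 and 14 of 20 chromosomes in stage order. Broad islands of at least 20 kb were rare in the middle: the cotyledon-stage list had 6 (0.405% of its islands), the early maturation list 7 (0.735%), the mid-maturation list 5 (0.481%), the late maturation list 6 (0.537%) and the seedling list 5 (0.402%). The ends held 240 (3.22%), 229 (4.46%), 123 (2.18%), 238 (3.96%) and 83 (1.16%) in the same order.

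The strength of the signal did not follow the number of regions. H3K27me3 islands come with the reads of the ChIP and of the control, and their ratio, which is not scaled to sequencing depth, was compared within each list only. The median ratio was 2.19 in the middle against 2.07 at the ends at the cotyledon stage, 1.01 against 1.00 at early maturation and 1.88 against 2.19 at mid-maturation. It was 1.26 in the middle against 1.24 at the ends at late maturation, and 1.296 against 1.40 in seedlings. The middle was lower on 19 of 20 chromosomes at mid-maturation and in seedlings, but on 6 for cotyledon-stage embryos, on 10 for early and on 7 for late maturation embryos. The median of the middle divided by that of the ends was 0.856 at mid-maturation (0.823 to 0.902) and 0.926 in seedlings (0.896 to 0.956).

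Both terms of the ratio moved. At mid-maturation the median island had 93.3 ChIP reads per kb in the middle against 97.9 at the ends, and 48.2 control reads per kb against 44.7. In seedlings it had 104.8 ChIP reads per kb in the middle against 108.6 at the ends, and 80.0 control reads per kb against 77.5. At the cotyledon stage both terms were lower in the middle, with 150.9 against 156.0 ChIP reads and 71.2 against 76.1 control reads per kb.

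Islands of like width were also set side by side. The cotyledon-stage median of the middle was above that of the ends in all 4 width classes, by a factor of 1.18 under 2 kb, 1.21 from 2 to 5 kb, 1.098 from 5 to 10 kb and 1.04 at 10 kb or more. At early maturation it was also above in all 4, with factors of 1.13, 1.02, 1.09 and 1.01. At mid-maturation it was below in all 4, with factors of 0.894, 0.922, 0.872 and 0.934. In seedlings the factors were 0.974, 0.950, 0.912 and 0.971, also below 1 in all 4 classes. At late maturation only the class under 2 kb was below 1.

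**Figure D4:**
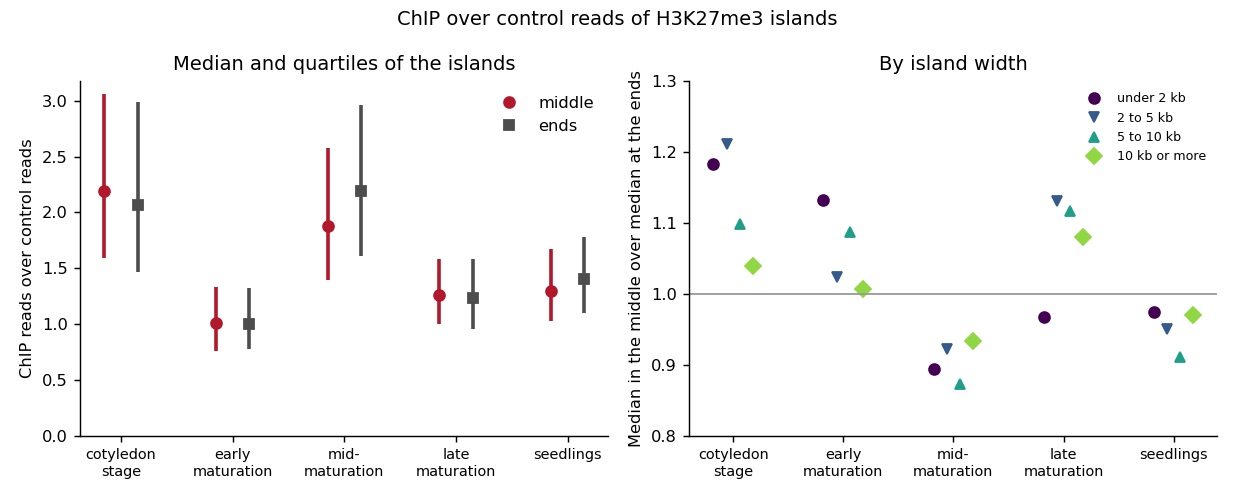
Left, ChIP over control reads of H3K27me3 islands at each stage in the middle (red circles) and at the ends (grey squares), as the median with a bar from the lower to the upper quartile of the islands. Right, the median of the middle divided by that of the ends in 4 width classes: all 4 points lie above 1 at the cotyledon stage, up to 1.21, and below 1 at mid-maturation, down to 0.872.

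H3K4me3 lists hold 1 score per peak in place of read numbers, so peaks were ranked by percentile within their list. The median percentile was 47.5 in the middle against 50.8 at the ends at the cotyledon stage, and 48.2 against 51.4 at early maturation. It was 49.9 in the middle against 51.1 at the ends at mid-maturation, 50.6 against 50.03 at late maturation and 50.7 against 50.6 in seedlings. The pooled median of the middle was thus within 3.36 percentile points of that of the ends in each list. By chromosome, the middle's median score was lower on 15, 16, 14, 9 and 11 of 20 in stage order. Without chromosome 13 the pooled median score was lower in the middle in every list. It was then 77.9 against 92.7 at the cotyledon stage, 120.7 against 143.2 at early maturation and 64.5 against 65.3 at late maturation.

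The merged peaks that ranked highest over all 5 stages in the middle were 1628, 1855 and 1318 bp wide, against a median of 1229.5 bp for the middle's merged peaks of all 5 stages. First came a peak on chromosome 6 from 22511178 to 22512805, with a score of 194 in the cotyledon-stage list, 286 and 263 in the early and mid-maturation lists, 172 at late maturation and, in seedlings, 168. Its percentile was 96.4 to 99.2 in the 5 lists. The next, on chromosome 11, ran from 17393069 to 17394923 (mean percentile 97.9). It was followed by a peak of chromosome 1 from 28536002 to 28537319 (97.7). The last of these reached percentile 99.9 in seedlings. The widest merged region present at all 5 stages was on chromosome 13 from 21212060 to 21217370, 5311 bp in all, and its mean percentile was 72.8.

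For H3K27me3, the island with the highest mean percentile of the read ratio lay on chromosome 5 from 18845201 to 18857000. It had 4635 ChIP against 722 control reads at the cotyledon stage (ratio 6.42), 1807 against 671 at early maturation (2.69) and 2621 against 576 at mid-maturation (4.55). It had 1201 ChIP against 491 control reads at late maturation (2.45) and 2493 against 840 in seedlings (2.97). All of these lay at or above percentile 98.4 of their list. The next, on chromosome 4, ran from 24882601 to 24897600 with a mean percentile of 98.7. It was followed by an island of chromosome 15 from 22034001 to 22043600, at 98.2. The 3 widest merged islands present at all 5 stages were all on chromosome 13, past the boundary described above. They ran from 21985201 to 22032600 (47.4 kb), from 24070801 to 24110200 (39.4 kb) and from 20370001 to 20403200 (33.2 kb), and each was split into 2 or more islands in at least 3 of the lists.

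Stage sharing was examined on merged regions, made by joining all regions of a mark, from any of its 5 lists, wherever 1 bp or more overlapped. For H3K4me3 the shares in the middle were close to those at the ends. Of 3573 merged H3K4me3 regions in the middle, 57.5% were present at all 5 stages (55.9% to 59.2%), against 57.2% of 24174 at the ends (56.6% to 57.9%). Over all chromosomes in full the share was 56.5%. Presence at 1 stage only was found for 20.6% in the middle (19.3% to 22.0%) against 20.3% at the ends, with 20.6% over the full chromosomes.

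For H3K27me3 the share present at every stage was lower in the middle. Of 1598 merged islands in the middle, 44.4% were present at all 5 stages (42.0% to 46.9%), against 48.0% of 7556 at the ends (46.9% to 49.1%), with 47% over the full chromosomes. The share was lower in the middle on 14 of 20 chromosomes. With the middle from 45% to 55%, the difference was -3.02 percentage points with an interval that included 0 (-6.82 to 0.829). When islands had to overlap reciprocally by 50%, the direction turned round: 41.8% of the middle's islands had a partner in every other list, against 33.7% at the ends. With the islands of each list counted apart and an overlap of 1 bp, 65.7% of them in the middle against 69.4% at the ends had one. Presence at 1 stage only was found for 26.1% in the middle (24.0% to 28.3%) against 24.7% at the ends, with 24.3% over the full chromosomes.

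Merged regions present at all 5 stages were wider than those of 1 stage, a direction that merging itself favours. A merged width spans every region joined, and a wide region meets others more easily. In the middle, H3K4me3 regions of all 5 stages had a median merged width of 1229.5 bp, against 277 bp for those of 1 stage. For H3K27me3 these medians were 6200 bp and 1800 bp. At the ends the islands of all 5 stages were wider, with a median of 9000 bp.

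The longest list of each mark gave the most single-stage regions of the middle. Of the 737 H3K4me3 regions of 1 stage, 345 were from seedlings, 136 from late maturation, 124 from mid-maturation, 81 from the cotyledon stage and 51 from early maturation. Of the 417 H3K27me3 islands of 1 stage, 290 were from the cotyledon stage, 90 from seedlings, 30 from late maturation, 5 from mid-maturation and 2 from early maturation. Over the full chromosomes the split was close to this: seedlings gave 46.8% of the single-stage H3K4me3 regions in the middle against 49.2% there, and the cotyledon stage gave 69.5% of the single-stage islands against 66.1%. Late maturation had the shortest H3K4me3 list, with 41536 peaks, but more single-stage regions in the middle than mid-maturation, with 47697 peaks. The part of list length in these counts was not tested.

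The single-stage regions that ranked highest came from 1 stage for each mark. For H3K4me3 the 3 highest were all late maturation peaks, the stage with its own protocol. They lay on chromosome 9 from 20992129 to 20993853 with a score of 141 (percentile 88.0), on chromosome 19 from 27992180 to 27993540 with 138 (87.1), and on chromosome 14 from 26738314 to 26739332 with 96.8 (67.4). For H3K27me3 the 3 highest were all cotyledon-stage islands. They lay on chromosome 11 from 19577801 to 19580200 with 301 ChIP and 63 control reads, on chromosome 9 from 19629601 to 19633400 with 362 and 77, and on chromosome 12 from 17721801 to 17722400 with 112 and 28.

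From one stage to the next, the share of H3K27me3 islands that stayed listed was lowest after the cotyledon stage, in the middle as over the full chromosomes. The cotyledon-stage list is also longer than that of early maturation, with 21435 against 14155 islands. Of its 1422 merged islands in the middle, 61.7% were still listed at early maturation (59.2% to 64.2%), against 65.8% at the ends (64.6% to 66.9%). From early to mid-maturation 90.1% of the middle's islands stayed listed, against 91.6% at the ends, and from mid- to late maturation 89.2% did, against 93.3%. From late maturation to seedlings 84.6% did, against 83.1% at the ends. Over the full chromosomes the 4 shares were 63.5%, 91.7%, 92.1% and 83.0%. Islands listed at mid-maturation but not at early maturation made up 15.9% of that stage's islands in the middle against 9.49% at the ends. Over the full chromosomes they made up 11.7%. Of the middle's 1598 merged islands, 1422 were listed at the cotyledon stage, so islands not listed at the stage before need not be new. The share of islands not listed at the stage before was 2.34% in the middle against 0.985% at the ends at early maturation. It was 15.9% in the middle against 16.9% at the ends at late maturation, and 20.8% against 20.3% in seedlings. For H3K4me3, 94.8% of the middle's regions stayed listed from the cotyledon stage to early maturation, 94.5% to mid-maturation, 80.6% to late maturation and 91.5% to seedlings, against 94.4%, 94.8%, 79.7% and 92.0% at the ends.

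The same comparison in bases used the Jaccard index, the bases in both lists over the bases in either. For H3K27me3 it was lower in the middle for 10 of the 10 pairs of stages, at 0.568 to 0.705 against 0.606 to 0.747 at the ends. For H3K4me3 it was higher in the middle for 8 of 10 pairs, at 0.607 to 0.802 against 0.600 to 0.811, and no pair differed by more than 0.0117.

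Some regions carried both marks at a stage, as seen in bulk tissue. Of the middle's H3K4me3 peaks, 18.2% shared at least 1 bp with that stage's H3K27me3 islands at the cotyledon stage (16.7% to 19.7%), against 19.97% at the ends and 20.1% over the full chromosomes. At early maturation it was 14.4% (13.1% to 15.7%) against 16.1%, with 16% over the full chromosomes. At mid-maturation it was 17.6% (16.3% to 19.1%) against 17.9%, with 18.3%. At late maturation it was 14.6% (13.3% to 16.0%) against 18.2%, with 17.8%, and in seedlings 20.2% (18.8% to 21.7%) against 21.7%, with 21.9%. The share was lower in the middle at all 5 stages, although without chromosome 13 the mid-maturation difference was 0.222 percentage points the other way. The interval of the difference excluded 0 at the cotyledon stage (-3.34 to -0.195 percentage points), early maturation (-3.11 to -0.273) and late maturation (-5.06 to -2.09), and at the first 2 it included 0 without chromosome 13. At late maturation the share was lower in the middle on 14 of 20 chromosomes. These shares were not adjusted for island coverage, which was 3.18% of the middle against 23.2% of the ends at the cotyledon stage. In the middle the share of peaks on islands was above the covered share at every stage. At the ends it was above the covered share at mid-maturation and in seedlings, and below it at the other stages. These are unlike measures: a peak counted with 1 bp on an island, so it meets islands more often than a single base does. How often peaks would meet islands if placed at random was not tested.

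**Figure D5:**
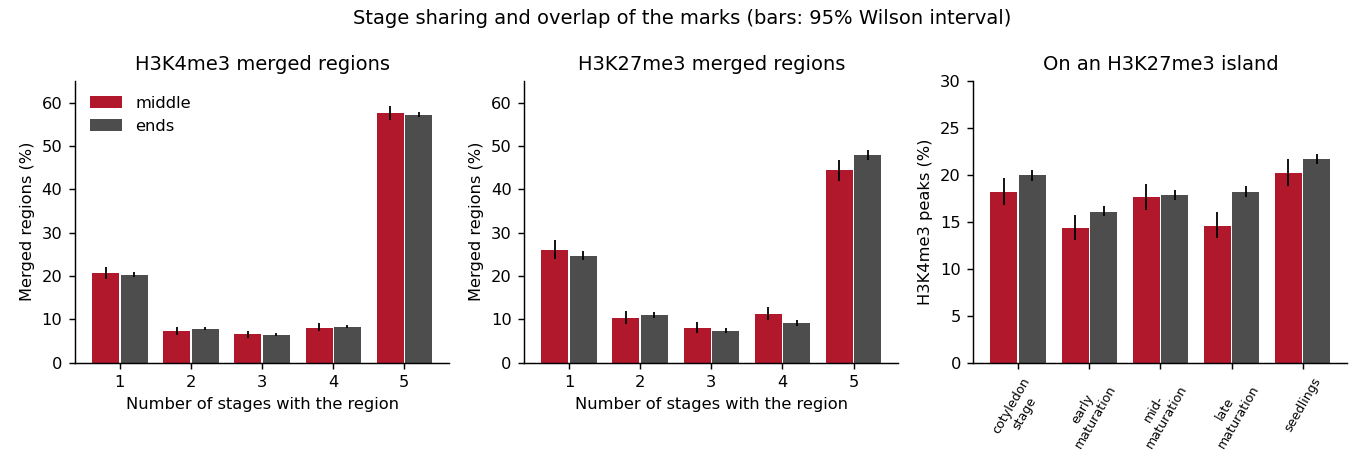
Left and centre, share of merged H3K4me3 and H3K27me3 regions present at 1 to 5 stages, in the middle (red) and at the ends (grey). Right, share of H3K4me3 peaks on an H3K27me3 island of the same stage. Bars carry 95% Wilson intervals for counting error: regions of all 5 stages make up 57.5% of H3K4me3 and 44.4% of H3K27me3 in the middle, against 57.2% and 48.0% at the ends.

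Seen from the islands, 25.1% of those in the middle held a peak at the cotyledon stage against 34.9% at the ends, 33.6% against 41.0% at early maturation and 38.3% against 43.5% at mid-maturation. At late maturation 28.9% did in the middle against 37.3% at the ends, and in seedlings 39.5% against 45.3%. Over the full chromosomes the shares were 30.5%, 37.7%, 40.9%, 33.1% and 42.2% in stage order. Neither island width nor the density of peaks was held equal in this comparison. At the cotyledon stage there were 14.0 peaks per Mb in the middle against 96.3 at the ends.

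Peaks on an island were the smaller ones. At the cotyledon stage the middle's peaks on an island had a median width of 550.5 bp and a median percentile of 23.4, against 993 bp and 53.5 for those off the islands. In seedlings these were 599 bp and 29.6 against 971 bp and 58.5. Islands with a peak were wider than those without, at 4200 against 2800 bp at the cotyledon stage and 3200 against 2400 bp in seedlings.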

How the data were processed

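The data were region lists from ChIP-seq of 5 stages. Per the submitters' processing notes, Bowtie 0.12.7, SAMtools 0.1.19, MACS2 and SICER 1.1 were used. The genome build is not given in the sources used here, and depths of single libraries were not analysed here. Both replicates served 1 list, per the labels. H3K4me3 lists hold 1 score per peak as deposited, whose meaning is not stated. H3K27me3 lists, with a 200 bp window and a 600 bp gap in their names, hold the deposited read counts of ChIP and control, a fold that the authors computed as their ratio times 1 constant per list, and the authors' p-value and FDR. Labels of the mid-maturation samples point to no list, so their lists were assigned by stage code.

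Islands above an FDR of 0.05 and regions off the 20 chromosomes were left out. Densities divide by zone length, and covered length counts bases clipped to the zone. Shares carry Wilson intervals. Ratios of numbers carry 95% binomial intervals. For a ratio of medians, the limits of the 95% interval of one median, read from ranks, were divided by the opposite limits of the other. Such intervals take regions as independent and are not exact 95% intervals of the ratio. The work used Python 3.11.15, numpy 2.4.6, pandas 2.3.3 and scipy 1.17.1, tested on simulated data. Named regions are, for each mark, the 3 of highest mean percentile and the 3 widest at all 5 stages, the 3 highest of 1 stage, and the longest empty run. Members and lists were chosen with earlier results of these data known. No gene annotation of the build was used, so no genes or sequences are given.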

Additional observations from a re-analysis of the deposited data

Results flagged for a closer look

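The median H3K27me3 read ratio of the middle relative to the ends pointed in opposite directions at different stages. At the cotyledon stage the median ratio of ChIP to control reads in the middle was 1.06 times that at the ends. At mid-maturation it was 0.856 times, and in seedlings 0.926 times, that at the ends. These values drew attention because the intervals of the last 2 lay below 1 and that of the first above it, with 1 list at each stage. The difference between the stages was not tested, and the values depend on the processing. With islands of a deposited fold of at least 3, the cotyledon-stage value was 0.986 (0.945 to 1.04) and the seedling value 0.996 (0.968 to 1.03), both with intervals that include 1.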

How the results depend on the processing

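No paired analysis was possible because the 2 replicates of a stage share 1 list, and for the same reason neither leaving out each replicate nor a replicate block was run. Leaving out each chromosome in turn put the number per Mb, middle over ends as the mean of the 5 lists, between 0.121 and 0.152 for H3K4me3 (0.147 with all) and between 0.161 and 0.193 for H3K27me3 (0.186 with all). The lowest of each was without chromosome 13, a choice also applied to all results after seeing the data. Without it the covered length, middle over ends, was 0.112 for H3K4me3 and 0.110 for H3K27me3 (0.139 and 0.135 with it). With the middle from 35% to 65%, number and covered length were 0.163 and 0.153 for H3K4me3 and 0.209 and 0.153 for H3K27me3. With the middle from 45% to 55% they were 0.167 and 0.124 for H3K27me3, and with ends of 5% they were 0.136 and 0.128 for H3K4me3. Stricter thresholds (score at or above the list's median, fold of at least 3) gave an H3K27me3 covered length of 0.119 and width of 69.7% of the ends (81.9% before). They put the share at all 5 stages, middle minus ends, at -1.54 percentage points for H3K4me3 (0.299 before) and -6.51 for H3K27me3 (-3.57 before), the H3K27me3 share at 1 stage at 6.84 points (1.41 before), and the late maturation overlap of the marks at -0.677 points (-3.62 before). They put the ChIP to control ratio, middle over ends, at 0.951 at mid-maturation, 0.996 in seedlings, where its interval then included 1, and 0.986 at the cotyledon stage, where it turned round. Summed reads gave 0.991 at the cotyledon stage, also turned round, 0.951 at early and 0.959 at late maturation (1.00 and 1.02 before). A reciprocal overlap of 50% turned the H3K27me3 share at all stages round to 8.14 points and put the shares at 1 stage at -2.79 points for H3K27me3 and -1.23 for H3K4me3 (0.332 before), while counting each list's regions apart at 1 bp, chosen after seeing the data, gave -3.70 for H3K27me3. Lists of equal length gave -8.99 points for H3K27me3 at all stages. The cause of these changes was not tested. The other 122 recomputed values, apart from chromosomes left out singly, moved by less than their counting interval, but for some the interval then included no difference. With the middle from 45% to 55% this held for the H3K27me3 share at all 5 stages (-3.02 points) and the H3K4me3 width (96.8% of the ends). For the overlap of the marks it held at the cotyledon stage and early maturation with ends of 5% (-1.22 and -1.27 points), with 50% of the peak covered (-0.843 and -1.03) and without chromosome 13 (-1.42 and -1.58). Differences near 0 changed sign among them: without chromosome 13 the H3K4me3 share at all 5 stages was -0.424 points and the mid-maturation overlap of the marks 0.222 points.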

Other observations

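Chromosomes with a denser middle in one mark were also denser in the other. Across the 20 chromosomes, the number per Mb in the middle had a Pearson r of 0.975 and a Spearman rho of 0.720 between H3K4me3 and H3K27me3. Without chromosomes 13 and 8 these were 0.818 and 0.616 over 18 chromosomes. Chromosome 11 was still among the 18, with 26.2 peaks and 10.3 islands per Mb, where the rest had at most 15.0 and 7.00. These correlations describe 20 points that share the same 10 lists, and no p is given.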
